A study of Rattus norvegicus with 2 samples.

Results

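The genes described here encode voltage-gated sodium and calcium channels, HCN channels and potassium channels, with their auxiliary subunits. They were chosen by name from the gene list of the deposited matrices: every symbol that starts with Kcn, Cacn, Scn and a digit, or Hcn and a digit. Kcnj8 was left out because it is a marker of mural cells. The rule took 134 of 25399 genes and used no measured value.

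The cells came from hearts of neonatal Sprague-Dawley rats aged 1 to 3 days, with both sexes pooled, and were enriched on a Percoll gradient for intrinsic cardiac adrenergic (ICA) cells, a catecholamine-making cell type of the heart. Cultured cells were given saline (control) or 1 µg/ml LPS, a bacterial cell wall component that triggers innate immune signalling, for 2 h. Each condition was sequenced as 1 single-cell library (10X Genomics, v2 kit). The labels call both samples ICA cells, but the authors' cell table sorts the cells into clusters 0 to 10 and names fibroblasts, endothelial cells and macrophages among them.

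The control library held 11531 cells with a median of 12479 unique molecular identifiers (UMIs, counted RNA molecules) per cell, and the LPS library held 12689 cells with a median of 9432. Channel genes gave 29568 UMIs in the control library and 19790 in the LPS library, or 194 and 155 UMIs per 1000000 UMIs of the library (CPM). No condition has a replicate, so no test was made and no p-value is given. All intervals are at 95% and reflect counting error alone. What the handling of each library added to their differences cannot be told apart from LPS. Of the cell barcodes, 194 occurred in both libraries.

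Voltage-gated sodium channels start the action potential of heart muscle, L-type calcium channels hold its plateau and bring in the calcium that triggers contraction, and several potassium channels end it in turn. HCN channels and T-type calcium channels help pacemaker cells and young heart muscle to depolarise on their own. In cells that do not fire, potassium channels set the resting potential and so the driving force for calcium entry, which matters in endothelial cells and macrophages.

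Of the 134 channel genes, 114 had at least 1 UMI in a cell with a cluster and 20 had none. The 20 without a UMI included the skeletal muscle L-type pore gene Cacna1s and the nerve genes Kcnq3, Scn9a and Scn11a. A total of 55 genes had at least 50 UMIs and 59 had between 1 and 49. Among the leading genes, Cacnb3, a calcium channel beta subunit that brings pores to the membrane, had 5916 UMIs, and Kcnk6, a 2-pore-domain potassium channel, had 2777. Cacna2d1 had 2398, Kcnd1 2339, Kcnk3 2281 and Kcne3 1700 UMIs. The 10 leading genes together held 68.8% of the channel UMIs, so most of the family was sparse.

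By role, the 4 sodium channel beta subunits held 26.2% of the channel UMIs and the 16 calcium channel auxiliary subunits 18.7%. The 38 voltage-gated potassium pore subunits held 16.2% and the 14 2-pore-domain potassium channels 12.5%. The 9 calcium pore genes held 8.38%, the 16 potassium auxiliary subunits 7.39% and the 10 sodium pore genes 4.56%. The 8 calcium- or sodium-activated potassium channels held 3.00%, the 4 HCN genes 1.54% and the 14 inward rectifiers 1.51%. UMIs count tagged transcript ends and are not divided by transcript length, so these shares compare counts of molecules caught, and where a gene is said below to have the most UMIs this is a rank of counts, not of levels per length. From here on CPM stands for the UMIs of a gene per 1000000 UMIs of the cluster in that library, and this is what is called its level.

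The names of the clusters were checked against marker lists. Cluster 3, named ICA and Cardiomyocyte, held 836 control and 929 LPS cells, and 9 cardiomyocyte markers (Tnni3, Tnnt2, Myh6, Actn2, Ryr2, Trdn, Casq2, Pln and Smpx) summed to 9102 CPM in control and 9457 in LPS cells. In the fibroblasts of cluster 0 the same list summed to 186 and 155. A list of 6 neuronal markers summed to 122 and 121 CPM in cluster 3, beside 38.8 and 37.0 in cluster 0, 114 and 106 in cluster 8 and 139 and 138 in cluster 10. Of its genes, Dbh, an enzyme of noradrenaline synthesis, stood at 25.4 and 24.8 in cluster 3, and Th had 0 UMIs there in both libraries. Endothelial markers summed to 1514 and 1467 in cluster 4, and macrophage markers to 1780 and 2562 in cluster 6. Cluster 2, which carries no name, led in mural markers with 3630 and 3312 CPM. Since droplets also enclose some free RNA, low levels in a cluster need not come from its cells. Fibroblast markers, for example, summed to 3809 and 3435 in cluster 3 against 11634 and 10684 in cluster 0.

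Channel genes were richest in cluster 3. All 134 together reached 728 CPM in its control and 702 in its LPS cells. The control values elsewhere were 157 in the fibroblasts of cluster 0, 126 in cluster 1, 181 in cluster 2, 266 and 345 in the endothelial clusters 4 and 5, and 147 in the macrophages of cluster 6. Of the 55 genes with at least 50 UMIs, 17 had their highest level in cluster 3, and 13 of these exceeded the next cluster at least 2-fold. For 10 of the 55 most UMIs lay in cluster 3 although it held few of the cells. Among these were Hcn4 with 74.8% of its UMIs there, Kcnj5 with 74.8%, Kcng2 with 70.3%, Cacng6 with 69.9%, Kcnj11 with 68.2%, Kcnq1 with 67.3%, Kcnj12 with 66.1%, Kcnh2 with 65.1% and Kcnk3 with 57.4%. Of the same 55, Kcne3 was the one with most of its UMIs in another cluster than 0 or 3, with 72.4% in cluster 4. Among sparser genes, Kcna4 had 79.6% of 49 UMIs in cluster 3 and Kcnmb2 73.7% of 38 in cluster 2. The clusters were made from the expression of all genes, these included, so this distribution is a description. The same shares over all genes are not given here, so these counts cannot be set against them.

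**Figure D1:**
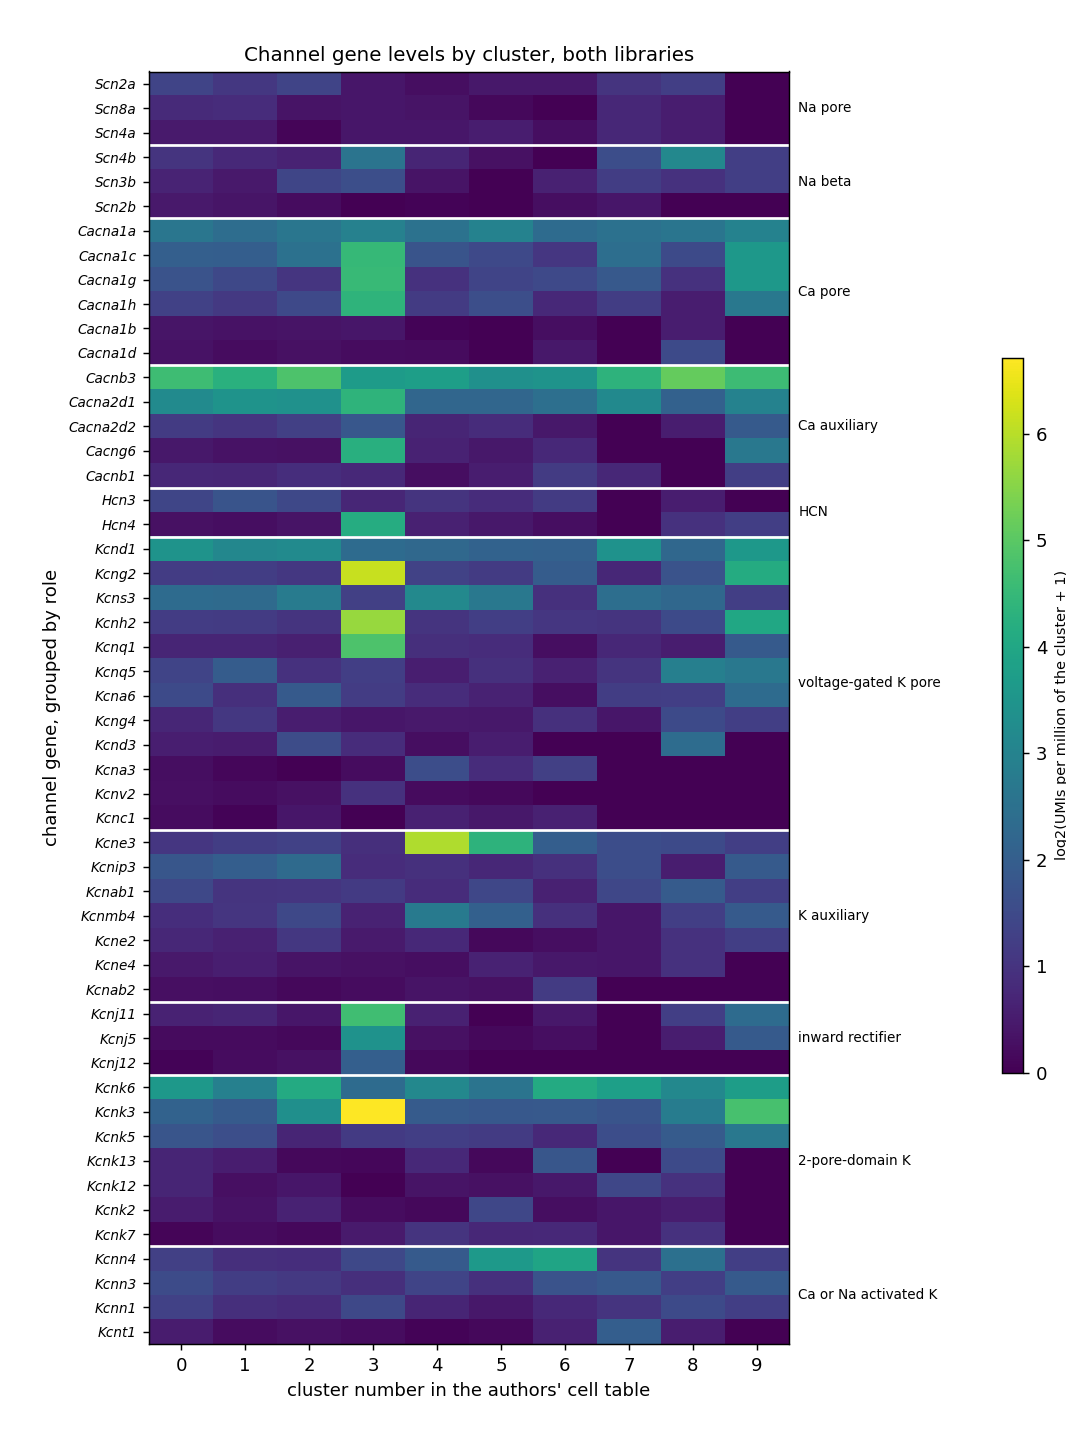
Levels of 52 of the 55 channel genes with at least 50 UMIs (rows, grouped by role) in clusters 0 to 9 (columns), both libraries together, coloured by log2 of CPM plus 1. Cluster 3 is brightest for Kcng2, Kcnh2, Kcnq1, Kcnk3, Kcnj11 and Hcn4, cluster 4 for Kcne3, and clusters 5 and 6 for Kcnn4.

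Of the sodium channel genes in cluster 3, Scn4b, a beta subunit linked to resurgent current, had 40 control and 23 LPS UMIs, a ratio of 0.743 (0.424 to 1.27). Scn1a, a pore gene best known from nerve cells, had 10 UMIs in each library.

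Both classes of cardiac calcium channel were seen in cluster 3. Cacna1c (ENSRNOG00000007090), the L-type pore that couples excitation to contraction, stood at 20.2 CPM in control and 23.9 in LPS cells, from 143 and 131 UMIs. The T-type pore gene Cacna1g stood at 23.2 and 20.4, and the other T-type pore gene, Cacna1h, at 20.9 and 18.1. All 3 ratios, 1.18 (0.926 to 1.51), 0.882 (0.687 to 1.13) and 0.864 (0.663 to 1.12), have intervals that include 1. Cacna1d, the L-type gene of pacemaker tissue, had 2 control UMIs and 0 LPS UMIs. Of the auxiliary subunits, Cacna2d1 stood at 17.5 and 22.6, with 124 UMIs in each library, and the gamma subunit Cacng6 (ENSRNOG00000057852) at 18.9 and 16.6. Cacnb2, the beta subunit usually linked to the heart, had 7 and 2 UMIs, whereas Cacnb3 had 91 and 57. Cacnb3 was higher in fibroblasts, with 28.9 and 17.6 CPM in cluster 0 against 12.9 and 10.4 in cluster 3, and the part of free fibroblast RNA in its cluster 3 level was not tested.

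Hcn4 (ENSRNOG00000009450), the main pacemaker channel gene of the sinus node, stood at 15.8 CPM in control (112 UMIs, 13.0 to 19.0) and 18.1 in LPS cells of cluster 3 (99 UMIs, 14.7 to 22.0). With every cell cut to 3000 randomly drawn UMIs (thinned), an Hcn4 UMI was found in 4.90% (3.54 to 6.59) of control cells and in 4.0% (2.83 to 5.47) of LPS cells, and without thinning in 10.5% and 8.61%. In the fibroblasts of cluster 0, a class that should lack the gene, the thinned shares were 0.106% and 0.0569%. The cells of cluster 3 were the shallower ones, with medians of 7526 and 5269 UMIs, beside 12968 and 9822 in cluster 0. Hcn2 had 1 UMI in each library there.

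The repolarising potassium channels were present as well. Kcnh2 (ENSRNOG00000009872), the pore of the rapid delayed rectifier, stood at 51.6 CPM in control and 49.3 in LPS cells of cluster 3, from 365 and 270 UMIs. Kcnq1 (ENSRNOG00000020532), the pore of the slow delayed rectifier, stood at 28.8 and 26.6, from 204 and 146 UMIs, and its partner Kcne1 had 5 and 3 UMIs. Their ratios, 0.955 (0.813 to 1.12) and 0.924 (0.742 to 1.15), have intervals that include 1. Kcng2 (ENSRNOG00000053640), a silent subunit that forms channels only together with pores of the Kcnb family, stood at 71.5 and 67.9, from 506 and 372 UMIs.

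The genes of the transient outward current were sparse in cluster 3. Kcna4 had 30 control and 9 LPS UMIs, or 4.24 and 1.64 CPM, a ratio of 0.387 (0.162 to 0.837) from fewer UMIs than the 50 set for a call. Kcnd3 had 6 and 4 UMIs, and its partner Kcnip2 had 0 in both. With 0 UMIs, levels of up to 0.424 CPM (control) and 0.547 CPM (LPS), each worth 3 UMIs, remain possible. Kcna5, an atrial delayed rectifier gene, had 0 and 1. Kcnd2 is not in the gene list and was not analysed here.

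Among the inward rectifiers, the pore of the ATP-sensitive channel of heart muscle had the most UMIs. Kcnj11 (ENSRNOG00000021128) stood at 26.7 CPM in control and 21.5 in LPS cells of cluster 3, a ratio of 0.806 (0.635 to 1.02). Kcnj5 (ENSRNOG00000033796), a pore of the acetylcholine-gated channel of the atrium, stood at 8.62 and 11.1, with 61 UMIs in each library, while its partner Kcnj3 had 0 and 1 UMI. Kcnj12 (ENSRNOG00000002303), a pore of the resting inward rectifier, had 24 and 15 UMIs, and Kcnj2, the other main gene of that current, had 0 in both libraries. The 2-pore-domain channel Kcnk3 (ENSRNOG00000009790), an acid-sensitive background channel that sets the resting potential, had the most UMIs of its group. It stood at 112 CPM in control (794 UMIs, 105 to 120) and 94.1 in LPS cells (516 UMIs, 86.2 to 103), a ratio of 0.839 (0.750 to 0.939). Kcnk3 was found in 28.9% and 24.5% of the thinned cells of cluster 3, beside 1.38% and 0.555% in cluster 0. Unthinned shares were 55.3% and 39.7% in cluster 3 and 5.79% and 1.55% in cluster 0.

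**Figure D2:**
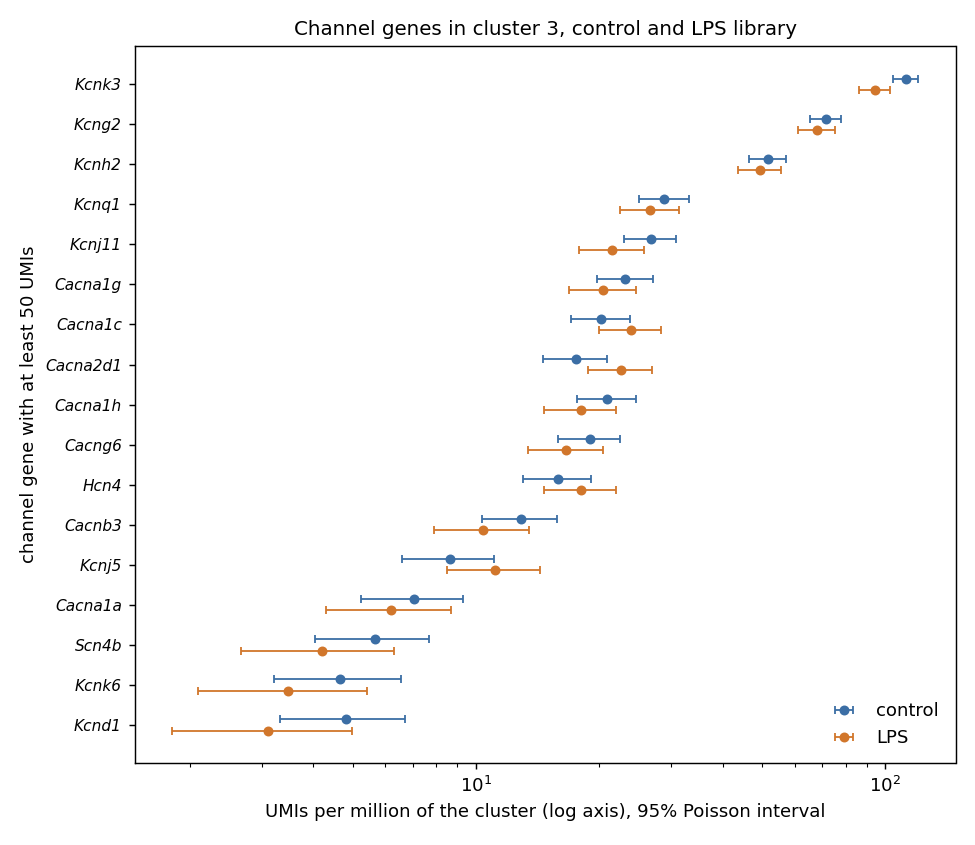
Levels of 17 of the 19 channel genes with at least 50 UMIs in cluster 3 (CPM, log axis), control in blue and LPS in orange, with 95% Poisson intervals. The 2 libraries lie within 2-fold for each gene, and of those shown Kcnk3 has a ratio interval that excludes 1.

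None of the 19 channel genes with at least 50 UMIs in cluster 3 was 2-fold higher or lower with LPS. Of all genes with at least 50 UMIs there, 1.7% were at least 2-fold higher and 1.69% at least 2-fold lower, so few calls are the background in this cluster. Their median log2 ratio was -0.18, beside -0.01 over all genes. All channel genes together changed from 728 to 702 CPM, a ratio of 0.963 (0.924 to 1.00).

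The 10 genes with most of their UMIs in cluster 3 were also counted at low levels in the other clusters. The 9 cardiomyocyte markers were set beside them as other heart muscle RNA, and single markers differed in their level there. Summed, the markers stood in cluster 0 at 2.04% of their cluster 3 level in control (0.989 to 2.27% for single markers) and at 1.64% in LPS cells. Of its own cluster 3 level, Hcn4 stood in cluster 0 at 1.68% and 1.20%, Kcnq1 at 2.49% and 1.93%, Kcnj11 at 2.28% and 2.2%, and Cacng6 at 2.16% and 1.71%. The intervals of these 4 genes include the summed markers in both libraries. The values of Kcnq1 and Kcnj11 lay above the highest single marker in control (2.27%) and in LPS cells (1.86%), with intervals that include it. The part of free RNA in these levels was not tested. Kcng2 stood at 2.40% (1.99 to 2.87) in control and 1.18% (0.880 to 1.55) in LPS cells. Its LPS interval lay under the summed markers. Kcnh2 stood at 3.19% (2.62 to 3.87) and 1.68% (1.25 to 2.22), and its control interval lay above every single marker.

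Kcnk3, like Kcnh2 in cluster 0, departed from the level of the markers in control cells. In cluster 0 it stood at 4.35% (3.87 to 4.90) of its cluster 3 level in control, above every single marker, and at 1.58% (1.28 to 1.95) in LPS cells, where the markers stood at 1.64%. In the mural-rich cluster 2 it stood at 13.0% (10.8 to 15.7) in control against 3.14% for the summed markers (0.893 to 4.62% for single markers), and at 3.16% (2.03 to 4.72) in LPS cells against 2.69%. In the endothelial cluster 4 it stood at 3.13% and 2.07% against 2.43% and 1.85%. In clusters 0 and 2 the control level of Kcnk3 thus lay above every single marker, and the LPS interval included the level of the summed markers. Cluster 1 gave the same picture. Its control value was 3.49% (2.79 to 4.33), against at most 2.38% for single markers. The LPS value was 1.42% (0.929 to 2.10), against 1.71% for the summed markers. In clusters 4 to 8 the control value also lay above every single marker, but with intervals that include the highest one.

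**Figure D3:**
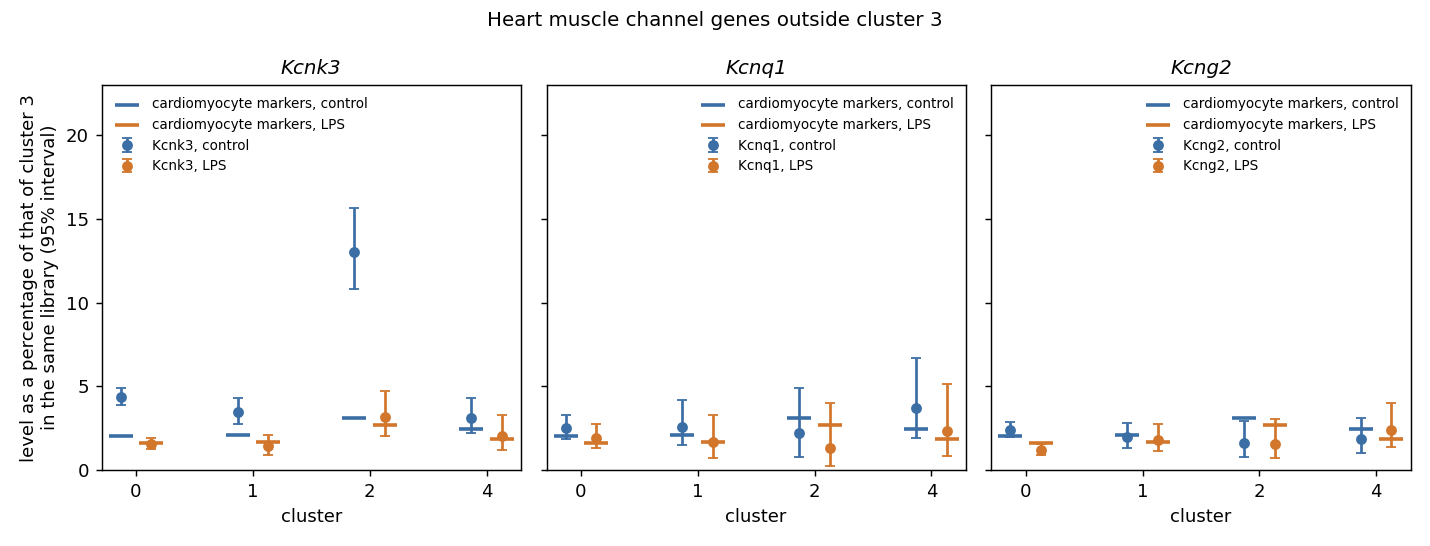
Levels of Kcnk3, Kcnq1 and Kcng2 in clusters 0, 1, 2 and 4 as a percentage of their level in cluster 3 of the same library (points, 95% exact intervals), with the summed cardiomyocyte markers as short lines, control in blue and LPS in orange. Kcnk3 in control cells of cluster 2 reaches 13.0% while its LPS point, 3.16%, lies near the marker line, and the intervals of Kcnq1 include the marker line in each of these clusters.

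In the fibroblasts of cluster 0, the largest cluster with 6600 control and 7030 LPS cells, Cacnb3 and Kcnk6 were among the 3 channel genes with the most UMIs. Of 46 channel genes with at least 50 UMIs there, 15 were at least 2-fold lower with LPS and 1 was at least 2-fold higher. The background over all genes was 9.1% lower and 3.44% higher. Sparse genes were lower more often: among genes with 50 to under 500 UMIs 21.2% were at least 2-fold lower, and 13 of the 37 channel genes in that range were. The median log2 ratio was -0.48 for the channel genes and -0.13 over all genes, and the sum of all channel genes went from 157 to 126 CPM, a ratio of 0.797.

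The 2 lowest ratios in cluster 0 were those of Kcne4 and Kcnab1, auxiliary subunits of voltage-gated potassium channels. Kcne4 (ENSRNOG00000048478), a membrane subunit that damps several potassium currents, had 53 control and 7 LPS UMIs, a ratio of 0.162 (0.0622 to 0.358). Kcnab1 (ENSRNOG00000056697), a cytoplasmic beta subunit that speeds inactivation, had 246 and 37 UMIs, or 2.72 and 0.502 CPM, a ratio of 0.185 (0.127 to 0.262). Kcne2 had 86 and 24 UMIs and Kcne3 had 127 and 49, with ratios of 0.342 and 0.473. All potassium auxiliary subunits together stood at 9.90 and 4.99 CPM in this cluster. Kcne3 stood at 1.40 and 0.664 CPM here, against 75.0 and 40.7 in the endothelial cluster 4. Endothelial markers summed to 54.0 and 38.0 CPM in cluster 0 and to 1514 and 1467 in cluster 4. The part of free endothelial RNA in the cluster 0 values of Kcne3 was not tested.

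RefSeq promoter windows on the rat build GRCr8 were searched on both strands for the NF-κB motif, since NF-κB is a main factor downstream of LPS. Windows were found for 89 of the 134 channel genes, 98 windows in all. Of the 15 genes that were lower in cluster 0, 12 had a window, 13 windows in all. Of these 13 windows, 2 held an NF-κB match (15.4%), beside 7.14% of the channel gene windows and 6.33% of all 33469 windows. The 2 windows belong to Kcnab1 and Kcne4. Since this share rests on 2 windows of genes picked by their values in these data, no enrichment is read from it. The MEF2 motif was in 1.02% of the channel gene windows and 2.96% of all windows, and the GATA motif (AGATAA) in 10.2% and 10.3%, both strands searched. On the gene's strand, a TATA box (TATAAA) was in 3.06% and 8.06%, and none of the 13 windows of the lower genes held one of these 3 motifs. The 250 bases before the start of Kcnab1 (chr2:151614301-151614550, plus strand), of Kcne4 (chr9:87695798-87696047, plus strand) and, as a comparison without a match, of Kcne3 (chr1:163935785-163936034, plus strand) are shown with NF-κB matches in capitals, chosen after their values were seen.
Kcnab1: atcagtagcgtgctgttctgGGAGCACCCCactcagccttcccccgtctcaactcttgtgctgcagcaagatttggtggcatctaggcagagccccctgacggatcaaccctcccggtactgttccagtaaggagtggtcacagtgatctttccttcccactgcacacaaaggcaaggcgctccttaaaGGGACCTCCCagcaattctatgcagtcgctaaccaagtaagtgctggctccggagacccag
Kcne4: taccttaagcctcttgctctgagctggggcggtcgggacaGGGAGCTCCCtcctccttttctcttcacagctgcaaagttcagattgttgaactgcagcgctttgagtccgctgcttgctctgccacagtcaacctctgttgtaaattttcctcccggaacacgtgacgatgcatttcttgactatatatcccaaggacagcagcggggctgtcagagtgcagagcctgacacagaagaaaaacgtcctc
Kcne3: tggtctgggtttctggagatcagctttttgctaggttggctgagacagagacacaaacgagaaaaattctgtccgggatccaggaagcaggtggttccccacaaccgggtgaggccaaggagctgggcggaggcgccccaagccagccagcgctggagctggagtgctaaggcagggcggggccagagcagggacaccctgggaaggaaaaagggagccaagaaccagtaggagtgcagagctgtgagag
A match of letters is not evidence that a factor binds there. The windows follow RefSeq starts, and which start these cells use was not tested.

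Pore genes were also among the 15. Kcnk3 had 442 control and 110 LPS UMIs in cluster 0, or 4.88 and 1.49 CPM, a ratio of 0.305 (0.246 to 0.377). Other 2-pore-domain channels went the same way: Kcnk5, an alkali-sensitive channel, had 301 and 94 UMIs (ratio 0.383), the stretch-gated channel Kcnk2 had 54 and 18 (0.409) and Kcnk13 had 76 and 28 (0.452). Kcnk6 differed less, with 12.1 and 9.37 CPM and a ratio of 0.774 (0.703 to 0.852). As a group, these 2-pore-domain channels stood at 22.9 CPM in control and 13.5 in LPS fibroblasts.

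Of the calcium channel pores, Cacna1c had 376 and 134 UMIs in cluster 0, a ratio of 0.437 (0.356 to 0.534), and Cacna1h had 181 and 62, a ratio of 0.420 (0.310 to 0.564). Cacna1g, the other T-type gene, had 200 and 181 UMIs and a ratio of 1.11 (0.903 to 1.36). The remaining genes past 2-fold were Scn4a, the skeletal muscle sodium pore, with 57 and 10 UMIs (ratio 0.215), the beta subunit Scn2b with 43 and 17 (0.485), and the voltage-gated potassium genes Kcnd3 with 59 and 18 (0.374), Kcng2 with 155 and 59 (0.467) and Kcna6 with 216 and 85 (0.483). Kcng2 and Kcnk3 belong to the genes with most UMIs in cluster 3, and their levels in cluster 0 are given above beside the cardiomyocyte markers.

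Not every channel gene of the fibroblasts was lower. The gene past 2-fold upward was Cacna1b, the N-type calcium pore of nerve terminals, from 17 to 34 UMIs, or 0.188 and 0.461 CPM (ratio 2.45, 1.33 to 4.68). Without the 5% of cells with the most UMIs this call was lost: Cacna1b then had fewer than the 50 UMIs set for a call, with a log2 ratio of 1.40 beside 1.30 with all cells. Kcns3 (ENSRNOG00000004899), a silent potassium channel subunit, went from 274 to 400 UMIs, or 3.03 to 5.42 CPM, a ratio of 1.79 (1.53 to 2.10) that stays under 2-fold. Kcnd1, a pore of the transient outward family, went from 10.3 to 9.40 CPM. Cacnb3 went from 28.9 to 17.6 (ratio 0.608, 0.568 to 0.650).

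Cluster 1, also named fibroblast, held 1295 control and 1435 LPS cells, with cycling markers (Top2a, Mki67 and Cdk1) at 443 and 421 CPM against 42 and 27.5 in cluster 0. Of its 22 channel genes with at least 50 UMIs, 4 were at least 2-fold lower and none was at least 2-fold higher, beside 5.09% and 3.23% of all genes. The 4 were among its 20 channel genes with 50 to under 500 UMIs, a range in which 9.95% of all genes were at least 2-fold lower. The 4 were Kcnk5 with 72 and 19 UMIs (ratio 0.315), Kcnk3 with 94 and 27 (0.343), Cacna1c with 97 and 36 (0.443) and Kcnh2 with 39 and 16 (0.489). Of these, Kcnk3 and Kcnh2 have most of their UMIs in cluster 3. In cluster 1 they stood at 3.49% and 3.15% of their cluster 3 level in control, and at 1.42% and 1.61% in LPS cells. The summed cardiomyocyte markers stood at 2.10% and 1.71%, and the part of free RNA was not tested. Kcnk5, Kcnk3 and Cacna1c were also past 2-fold in cluster 0, where Kcnh2 had a ratio of 0.502 (0.367 to 0.681). The median log2 ratio was -0.23 for these channel genes and -0.07 over all genes. Cluster 7, also named fibroblast, with 104 control and 144 LPS cells, held 220 and 193 channel UMIs, with Cacnb3 and Kcnk6 among its 3 leading channel genes.

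In the mural-rich cluster 2, Cacnb3 stood at 34.0 CPM in control and 21.1 in LPS cells, a ratio of 0.621 (0.513 to 0.748). Kcnk6, also among the 3 channel genes with the most UMIs there, stood at 19.2 and 12.9, a ratio of 0.669 (0.522 to 0.854). Of 10 channel genes with at least 50 UMIs, 1 was at least 2-fold lower and none was at least 2-fold higher, beside 4.28% (6.21% from 50 to under 500 UMIs) and 2.86% of all genes, and the medians of log2 ratios were -0.19 for the channel genes and -0.12 over all genes. The gene was Kcnk3, with 137 control and 25 LPS UMIs, or 14.6 and 2.98 CPM, a ratio of 0.203 (0.127 to 0.313). Kcnk3 was found in 3.54% (2.56 to 4.75) of thinned control cells and 0.789% (0.395 to 1.41) of thinned LPS cells, and in 8.75% and 1.62% without thinning. Kcnj8, the pore of the ATP-sensitive channel of mural cells that the choice of genes left out, stood at 296 and 212 CPM in this cluster.

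In the endothelial clusters 4 and 5, 11 and 5 channel genes had at least 50 UMIs. Kcne3 (ENSRNOG00000017054), a subunit that holds Kcnq1 channels open, had most of its UMIs in the endothelial cluster 4, as given above. In cluster 4 it had 834 control and 396 LPS UMIs, or 75.0 (70.0 to 80.2) and 40.7 (36.8 to 44.9) CPM, a ratio of 0.543 (0.480 to 0.612). In cluster 5 it had 131 and 40 UMIs, or 30.8 and 8.79 CPM, a ratio of 0.285 (0.195 to 0.409). The level in cluster 5 was thus lower than in cluster 4 in both libraries, at 0.411 (0.339 to 0.495) of it in control and 0.216 (0.152 to 0.300) in LPS cells. In thinned cells of cluster 4, Kcne3 was found in 20.6% (17.7 to 23.7) with saline and 9.80% (7.82 to 12.1) with LPS, and in cluster 3, taken as a class without it, in 0.598% and 0.108%. Without thinning the shares were 50.1% and 27.7% in cluster 4 (medians of 12499 and 9972 UMIs a cell) and 1.20% and 0.108% in cluster 3. Kcnq1 itself had 12 and 6 UMIs in cluster 4.

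Kcnn4 (ENSRNOG00000019440), the calcium-activated potassium channel through which endothelial cells hyperpolarise, was higher in cluster 5 than in cluster 4. It stood at 16.2 CPM in control and 6.37 in LPS cells of cluster 5, from 69 and 29 UMIs, a ratio of 0.392 (0.245 to 0.614). In cluster 4 it stood at 3.15 and 2.26. Kcnmb4, a subunit of large-conductance calcium-activated channels, stood at 5.93 and 5.75 in cluster 4 and at 3.06 and 3.30 in cluster 5, and the ratio of cluster 5 to cluster 4 was 0.516 (0.261 to 0.944) in control and 0.573 (0.301 to 1.03) in LPS cells.

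None of the 11 channel genes with at least 50 UMIs in cluster 4 was past 2-fold in either direction, where 4.08% of all genes were at least 2-fold lower and 2.65% at least 2-fold higher. Of the 11, 9 had 50 to under 500 UMIs, a range in which 6.72% of all genes were at least 2-fold lower. The median log2 ratio of the 11 was -0.48, beside -0.09 over all genes. As in the other clusters, the median over all genes was not matched for UMI counts. In cluster 5, 3 of 5 channel genes were at least 2-fold lower, beside 4.56% of all genes (5.59% from 50 to under 500 UMIs), and none was at least 2-fold higher, beside 4.24%. The 3 were Kcne3, Kcnn4 and Cacnb3, the last with 55 and 27 UMIs (ratio 0.458, 0.278 to 0.739), and the median log2 ratios were -1.13 and -0.06. Endothelial markers summed to 1134 and 971 CPM in cluster 5, and the part of this difference in the channel values was not tested. Fibroblast markers summed to 3068 and 2201 CPM there, and Cacnb3 stood at 28.9 and 17.6 CPM in the fibroblasts of cluster 0. The part of free fibroblast RNA in the Cacnb3 values of cluster 5 was not tested.

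In the macrophages of cluster 6, 281 control and 291 LPS cells, Kcnk6 and Kcnn4 were among the 3 channel genes with the most UMIs. Kcnn4, which keeps the membrane potential negative during calcium entry in macrophages, had 74 control and 6 LPS UMIs, or 23.8 (18.7 to 29.8) and 2.41 (0.886 to 5.25) CPM, a ratio of 0.102 (0.0361 to 0.232). Kcnk6 (ENSRNOG00000020598), known in macrophages for potassium efflux upstream of the inflammasome, had 72 and 19 UMIs, or 23.1 (18.1 to 29.1) and 7.64 (4.60 to 11.9), a ratio of 0.331 (0.188 to 0.554). The counting intervals of control and LPS cells do not overlap for either gene. The share of all genes for which this holds is not given here. Of all genes with at least 50 UMIs in this cluster, 12.3% were at least 2-fold lower.

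Kcnn4 was found in 5.69% (3.29 to 9.08) of thinned control macrophages and 1.38% (0.377 to 3.49) of thinned LPS macrophages, beside 0.515% and 0.399% in cluster 0. Without thinning it was found in 14.6% and 2.06% of the macrophages, whose cells held medians of 8846 and 6900 UMIs, beside 2.12% and 1.25% in cluster 0. The LPS level of Kcnn4, 2.41 CPM from 6 UMIs (0.886 to 5.25), compares with 1.23 in cluster 0, which its interval includes. The LPS level of Kcnk6, 7.64 (4.60 to 11.9), was under the 9.37 of cluster 0, which its interval also includes. Kcnk6 was not particular to the macrophages: in the mural-rich cluster 2 it stood at 19.2 CPM in control and 12.9 in LPS cells. Macrophage markers summed to 1780 and 2562 CPM in cluster 6. This sum was higher with LPS, but single markers are not given here, and a few of them could carry it.

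Of the 4 channel genes with at least 50 UMIs in cluster 6, 2 were at least 2-fold lower, beside 12.3% of all genes (14.4% from 50 to under 500 UMIs), and none was at least 2-fold higher, beside 4.82%. The median log2 ratio was -1.23 for the channel genes and -0.31 over all genes. Cacnb3, under 2-fold, had 39 and 17 UMIs (ratio 0.546, 0.290 to 0.988). Fibroblast markers summed to 3882 and 2967 CPM in this cluster, and the part of free fibroblast RNA in its Cacnb3 values was not tested. All channel genes together stood at 147 CPM in control and 67.2 in LPS macrophages, a ratio of 0.457.

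**Figure D4:**
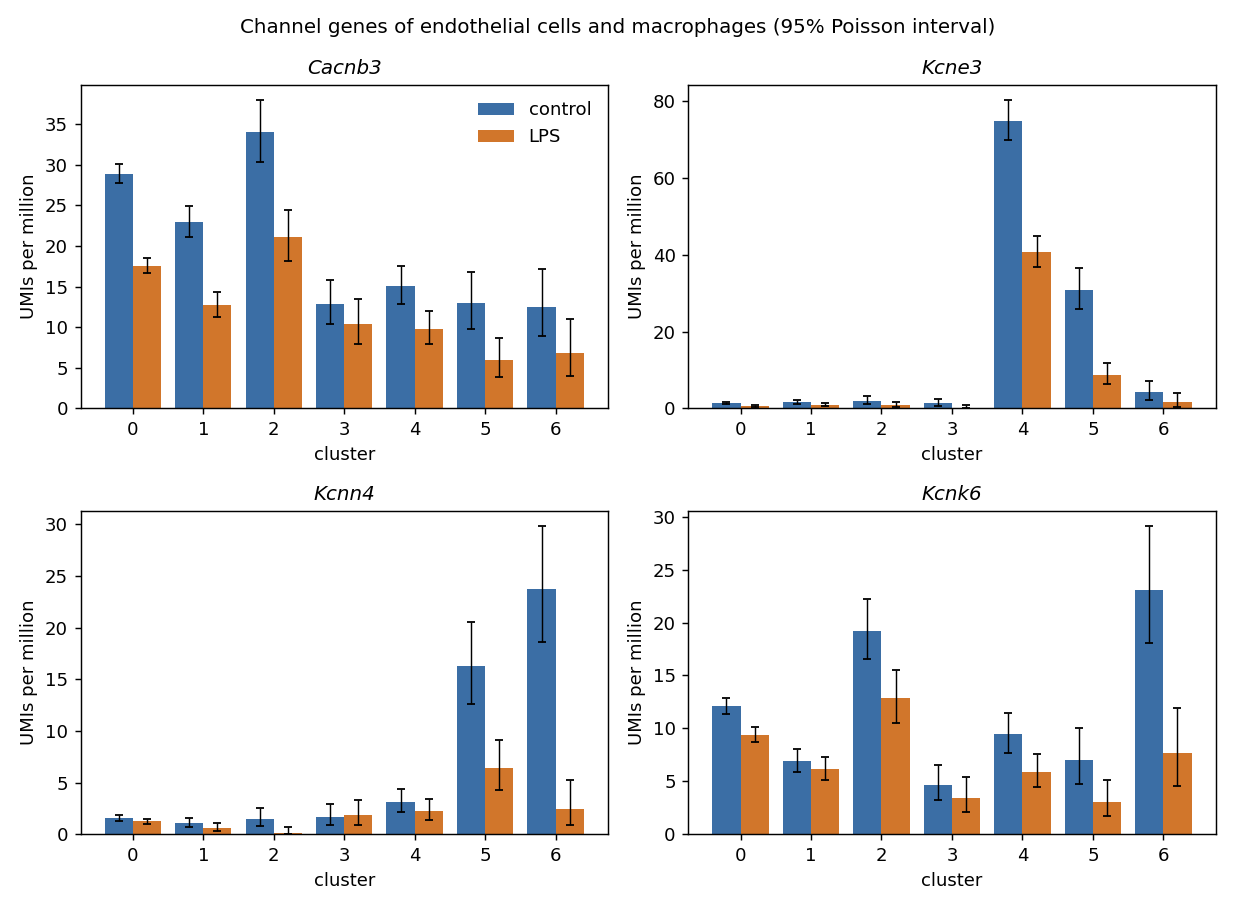
Levels of Cacnb3, Kcne3, Kcnn4 and Kcnk6 (CPM, bars from 0) in clusters 0 to 6, control in blue and LPS in orange, with 95% Poisson intervals. Cacnb3 is highest in cluster 2 at 34.0 and 21.1, Kcne3 in cluster 4 at 75.0 and 40.7, and Kcnn4 and Kcnk6 reach 23.8 and 23.1 in control macrophages of cluster 6 and 2.41 and 7.64 with LPS.

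The small clusters gave few channel UMIs. Cluster 8, with mesothelial markers at 504 and 529 CPM, had Cacnb3 at 33.3 and 34.3, from 37 and 36 UMIs. Cluster 9, 66 control and 58 LPS cells, had 14 and 3 UMIs of Cacnb3. Its cardiomyocyte markers summed to 1442 and 1573 CPM and its fibroblast markers to 17272 and 14504, and its median mitochondrial share was 14.0% and 12.6%. Cluster 10, 16 control and 26 LPS cells with glial markers at 765 and 533 CPM, held 18 and 23 channel UMIs.

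Across clusters 0 to 6, 117 pairs of a channel gene and a cluster had at least 50 UMIs, from 48 genes. Of these pairs, 25 were at least 2-fold lower with LPS, from 19 genes, and 1 was at least 2-fold higher. Over all genes the lower share ran from 1.69% in cluster 3 to 12.3% in cluster 6 and the higher share from 1.7% to 4.82%. Cluster 0, where 21.2% of the sparse genes were lower, gave 15 of the 25 pairs. Kcnk3 was past 2-fold in clusters 0, 1 and 2, with ratios of 0.305, 0.343 and 0.203, and stood at 0.839 in cluster 3 and 0.557 in cluster 4. Cacna1c was past 2-fold in clusters 0 and 1 and stood at 1.18 in cluster 3. Whether the ratios of a gene differ between clusters was not tested.

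**Figure D5:**
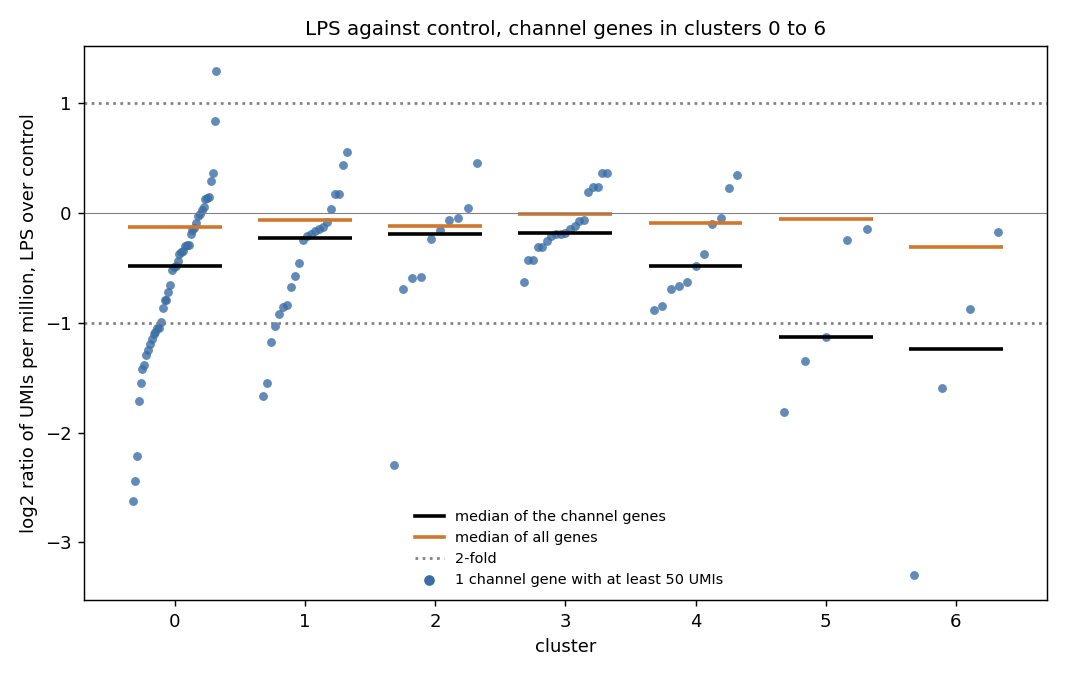
Log2 ratio of LPS to control for each channel gene with at least 50 UMIs in clusters 0 to 6 (points), with the median of the channel genes (black) and of all genes in the same cluster (orange) and dotted lines at 2-fold. In cluster 3 all 19 points lie between the dotted lines, whereas 15 of 46 lie under the lower line in cluster 0, 3 of 5 in cluster 5 and 2 of 4 in cluster 6.

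A list of 24 genes was counted in the same way. It holds genes whose products anchor, modify or join these channels, and also Kcnj8, the channel pore gene left out of the main set. None was at least 2-fold higher with LPS in clusters 0 to 6, where 1.7% to 4.82% of all genes were. The number at least 2-fold lower was 2 of 20 in cluster 0 (9.1% of all genes), 1 of 17 in cluster 1 (5.09%), 2 of 13 in cluster 2 (4.28%), 3 of 14 in cluster 4 (4.08%), 2 of 12 in cluster 5 (4.56%) and 3 of 10 in cluster 6 (12.3%). In cluster 3, 1 of 15 was at least 2-fold lower (1.69%), and their median log2 ratio was 0.05. It was Rem1, a small GTPase that reduces calcium channel currents, with 52 and 17 UMIs (ratio 0.422, 0.229 to 0.742). Rem1 stood there at 7.35 and 3.10 CPM, against 22.0 and 10.7 in the fibroblasts of cluster 0. Fibroblast markers summed to 3809 and 3435 in cluster 3 and to 11634 and 10684 in cluster 0. The part of free fibroblast RNA in the cluster 3 values of Rem1 was not tested. Rem1 was also past 2-fold in cluster 0, with 1989 and 791 UMIs, and in clusters 2, 4 and 6, with ratios of 0.488, 0.473, 0.395 and 0.336 in that order. Further genes past 2-fold included Cav3 in cluster 4 (0.488), Kcnj8 in clusters 5 and 6 (0.391 and 0.376) and Rrad, a relative of Rem1, in cluster 6 (0.440). Cav3 stood at 9.26 and 4.52 CPM in cluster 4, against 304 and 311 in cluster 3. Kcnj8 stood at 32.0 and 12.5 in cluster 5 and at 16.1 and 6.03 in cluster 6, against 296 and 212 in the mural-rich cluster 2. The part of free RNA from other clusters in these values was not tested. In the heart muscle cluster, Cav3, Rrad and Abcc9 stood at ratios of 1.02, 1.04 and 1.07.

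In the RefSeq annotation, 9 of the 55 channel genes with at least 50 UMIs overlap another gene: Cacnb3, Kcnk6, Cacna1c, Cacna1h, Hcn3, Cacnb1, Kcnk2, Kcnab2 and Kcnv2. Overlap was taken over whole gene spans on either strand. The strand setting of the counting is not given in the sources used here, and the part of reads of neighbours in these counts was not tested.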

How the data were processed

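Cardiac cells of neonatal rats were measured in 1 control and 1 LPS library. The authors deposited, per library, a matrix of raw UMI counts per gene and cell barcode, not normalized, and a cell table with clusters. The submitters' processing notes name Cell Ranger 2.2.0 and Seurat 2.3.4. The genome build and annotation of the counts are not given in the sources used here. The table holds clusters 0 to 10, and cells without a cluster (2 control and 8 LPS) were left out of the levels.

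UMIs were summed per gene, cluster and library and divided by the cluster's total, per 1000000 UMIs. Ratios were called at 2-fold or more with at least 50 UMIs over both libraries. Levels have exact Poisson intervals, ratios exact conditional ones and shares of cells Clopper-Pearson ones, all at 95% and for counting error alone. With 0 UMIs, up to 3 UMIs were allowed for. Shares of cells were also taken after thinning each cell to 3000 UMIs, which left out cells with fewer. All of these were LPS cells: 27 in cluster 2, 27 in cluster 4, 7 in cluster 5, 6 in cluster 0, 4 in cluster 9, 3 in cluster 3 and 1 in cluster 6. Computation used Python 3.11.15, numpy 2.4.6, scipy 1.17.1, pandas 2.3.3 and matplotlib 3.10.9, and was tested on simulated data. No doublets were removed. An alternative dropped the deepest 5% of cells. The other alternatives were a limit of 20% mitochondrial UMIs, totals without mitochondrial UMIs, minimums of 20 and 100 UMIs, centring on the median ratio, the mean of the cells' own levels and a 3-fold threshold. Subtracting the cardiomyocyte share was added after seeing the data.

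Genes were named where they were among the 3 channel genes with the most UMIs of a cluster, past 2-fold, on a list of 26 cardiac current genes (25 in the gene list), or had at least 50% of their UMIs in a cluster other than 0. Partner genes were named where past 2-fold. Others, among them Kcns3, Kcnd1, Kcnmb4, Cacnb3 in cluster 3, Scn1a and the genes at 0, were chosen after their values were seen. The channel genes and lists were chosen with earlier results of these data known. Some genes, counted in the totals, are not reported here by name.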

Additional observations from a re-analysis of the deposited data

Results flagged for a closer look

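The 8 LPS cells without a cluster, which enter no comparison above, held 4 channel UMIs, and the 2 control cells without a cluster held 2.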

How the results depend on the processing

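No paired analysis was possible because control and LPS were sequenced as 1 library each. Of 117 pairs of a channel gene and a cluster, 25 were at least 2-fold lower and 1 was at least 2-fold higher with LPS. The lower count was 40 with a minimum of 20 UMIs, 14 with a minimum of 100 UMIs and 9 at 3-fold, as these settings test more pairs, fewer pairs or a larger fold. It was between 20 and 27 under the others, with 20 when ratios were centred on the median of all genes in the cluster. The higher count, which rests on Cacna1b in cluster 0, was 0 without the 5% of cells with the most UMIs, 0 with a minimum of 100 UMIs and 0 at 3-fold. In cluster 3 no pair passed except 2 lower pairs at the minimum of 20 UMIs. The number of genes with their highest level in cluster 3 was between 15 and 21.

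Of 230 recomputed ratios of named genes, 229 moved by less than their counting error and none changed sign. When each cluster's cardiomyocyte share was subtracted, Kcnk3 in cluster 2 went from a log2 ratio of -2.30 to -4.65. Kcnk3 in clusters 0 and 1, Kcng2 in cluster 0 and Kcnh2 in cluster 1 had no value, because nothing remained in the LPS cells.

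Depth limits what can be said of most of the family: 59 genes had between 1 and 49 UMIs in all, and a difference under their counting error was not detectable.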

Other observations

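Cells of cluster 3 with at least 1 UMI of Dbh, the gene by which ICA cells are recognised, were 156 of 836 control and 121 of 929 LPS cells. Over both libraries, all channel genes together stood at 747 CPM in cells with a Dbh UMI and at 710 in cells without, a ratio of 1.05 (0.996 to 1.11). Kcnk3 stood at 111 and 103, Kcng2 at 77.3 and 68.3 and Hcn4 at 14.2 and 17.4, all with ratio intervals that include 1. Of the 13 channel genes with at least 200 UMIs in the cluster, Cacna2d1 had an interval that excludes 1, with 25.6 CPM in cells with a Dbh UMI and 18.5 in those without (ratio 1.38, 1.01 to 1.87). Its lower limit is close to 1, and the intervals were not corrected for looking at 13 genes. The share of all genes with such an interval is not given here, so no difference between these cells is read from it. Tnni3, a cardiac troponin, stood at 1010.2 and 1004.8. Cells with a Dbh UMI were deeper, with a median of 8200 UMIs against 7455 in control and 5379 against 5229 in LPS cells, and the part of depth in these values was not tested.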
